A study of Homo sapiens with 2 samples.

Results

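The genes described here belong to the pathway of p53, the transcription factor that halts the cell cycle, repairs DNA or kills the cell after damage. They are 30 genes chosen by name: regulators of p53 and genes that p53 switches on. Each was read through the probe sets of a 3′ expression array that are paired with it alone. Of the 30, 28 had such a probe set and 27 were bright enough to be measured, out of 13704 measured genes in all. BTG2 and FDXR had no probe set paired with them alone and were not analysed here, and SPATA18 was under the brightness filter on both arrays.

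The study set 2 lines of HCT116 side by side, colorectal cancer cells that are known to keep a working p53, with 1 array each. HCT116-GFP is labelled as wild type, and HCT116-CPEB4 is labelled as over-expressing CPEB4, an RNA-binding protein that acts on poly(A) tails and translation, from a lentivirus. Both were grown in RPMI-1640 medium with serum and antibiotics, no agent that damages DNA or stabilises p53 is named for either, and the labels do not say whether the GFP cells carry a vector or whether either line is a clone. With 1 array a group there is no replicate, no p-value and no error between cultures, so the precision is limited by the number of arrays. In a bulk sample, fewer cells with a transcript and less of it per cell cannot be told apart.

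In unstressed cells p53 is kept scarce by MDM2, a ubiquitin ligase that marks it for destruction, together with its relative MDM4. DNA damage kinases loosen that hold, and p53 then activates genes for arrest, repair and death. It also activates MDM2 and the phosphatase PPM1D, which close a negative feedback loop. These genes are often used as a readout of p53 activity in HCT116.

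The transcript meant to be over-expressed, CPEB4, read 731 at its brightest probe set in HCT116-GFP and 628 in HCT116-CPEB4, so it was no higher there, and its 2 further probe sets above the brightness filter were lower too. The part of the transcript that these probe sets read is not known here, so all directions below rest on the labels, and the second array is called the CPEB4-labelled array. Both arrays had 54675 probe sets and a trimmed mean intensity of 500.1. The ratio of 3′ to 5′ signal of ACTB, a sign of RNA quality, was 8.23 and 10.3 in the same order, while that of GAPDH was 0.989 and 1.04, and the part of RNA quality in the values below was not tested. As a check of the cell type, the summed intensity of 13 colon epithelial markers was 87919 and 88883. EPCAM, KRT8, KRT18, KRT19 and CDH1, which are not specific to colon, made up most of each sum, so it says little about colon identity. The median of the 13 was 103 and 120, the values of CDX2. KRT20 read 216 and 163, and CEACAM5 read 66.3 and 84.3. CDX1, and VIL1 at its brightest probe set, reached the filter on the CPEB4-labelled array only. CDH17, GPA33 and LGALS4 were under the filter on both arrays. The sums were 731 and 658 for 6 blood and immune markers, 1108 and 1499 for 6 fibroblast markers, where COL1A1 made up most of each sum, and 279 and 139.5 for 5 endothelial markers. Of the markers of these other cell types, CD79A, HBB, COL1A1 and PECAM1 reached the filter on both arrays, CSF1R and DCN on the CPEB4-labelled array, and the others, PTPRC, CDH5 and VWF among them, on neither.

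p53 binds pairs of half-sites of 10 bases, each built around a core of 4 bases that starts with C, ends with G and has A or T at both places between. Windows from 250 bases before to 50 bases after the start site were found in RefSeq (GRCh38.p14) for 26 of the 30 genes, 40 windows in all because some genes have several starts. They were searched for the p53 half-site consensus, for 2 such half-sites at most 13 bases apart, and for a core pair, meaning 1 core, then any 6 bases, then another core. The consensus and the core pair each read the same on both strands, so 1 strand covers both. The sequences below match the full site or the core pair and lie in the start windows of measured genes, with the cores in capitals.

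DDB2: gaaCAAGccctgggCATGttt
AEN: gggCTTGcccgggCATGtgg
GDF15: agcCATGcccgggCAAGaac
RPS27L: ggcCTAGagcagaCAAGccc
TRIAP1: aggCATGcacggaCATGaag
MDM4: tcaCAAGaccctgCAAGtcc

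The DDB2 sequence lies at chr11:47214979-47214999 on the plus strand, from base 6 to base 26 of a transcript, and is the only full site in the 40 windows. Full sites were present in 10 of all 35116 windows, or 0.0285%. The other 5 are core pairs, which 4.79% of all windows held, against 5 of the 40 windows here. They lie at chr15:88621306-88621325 (AEN, plus strand, 34 to 15 bases before the start), chr19:18386186-18386205 (GDF15, plus), chr15:63157527-63157546 (RPS27L, minus, 69 to 50 before the start), chr12:120446337-120446356 (TRIAP1, minus) and chr1:204516186-204516205 (MDM4, plus, 220 to 201 before the start). Those of GDF15 and TRIAP1 span bases 29 to 48 of the transcript. A half-site was found in 5 of the 40 windows, those of DDB2, AEN, RPS27L, PLK2 and FDXR, and in 6.63% of all windows. The AEN and RPS27L half-sites overlap their core pairs, and no half-site was found for GDF15, TRIAP1 or MDM4. A match is a description of letters, and windows of one gene can overlap.

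On the whole the p53 pathway differed little between the arrays. The difference is given throughout as log2 of the CPEB4-labelled array minus log2 of the HCT116-GFP array, for the brightest probe set of each gene. A gene counted as measured if it reached the median of all values, an intensity of 60.8, on at least 1 array. Of the 27 measured genes, 11 were above 0 and 16 below, with a median of −0.05, while 50.1% of all measured genes were above 0 and their median was 0.00. At 2-fold or more, 1 gene was higher (background 3.55% of all measured genes) and 0 were lower (3.85%). At 1.2-fold, a limit set after the values were seen, 2 were higher (background 21.7%) and 6 lower (22.0%), so 19 genes lay between these limits. The 6 are 22.2% of the measured members, a share close to its background over genes of all brightness, and the 2 are 7.41%. Among the 2 higher genes is EDA2R. With both arrays required to reach the filter, 1 was higher (background 18.5% of all genes under that filter) and 6 lower (18.4%).

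**Figure D1:**
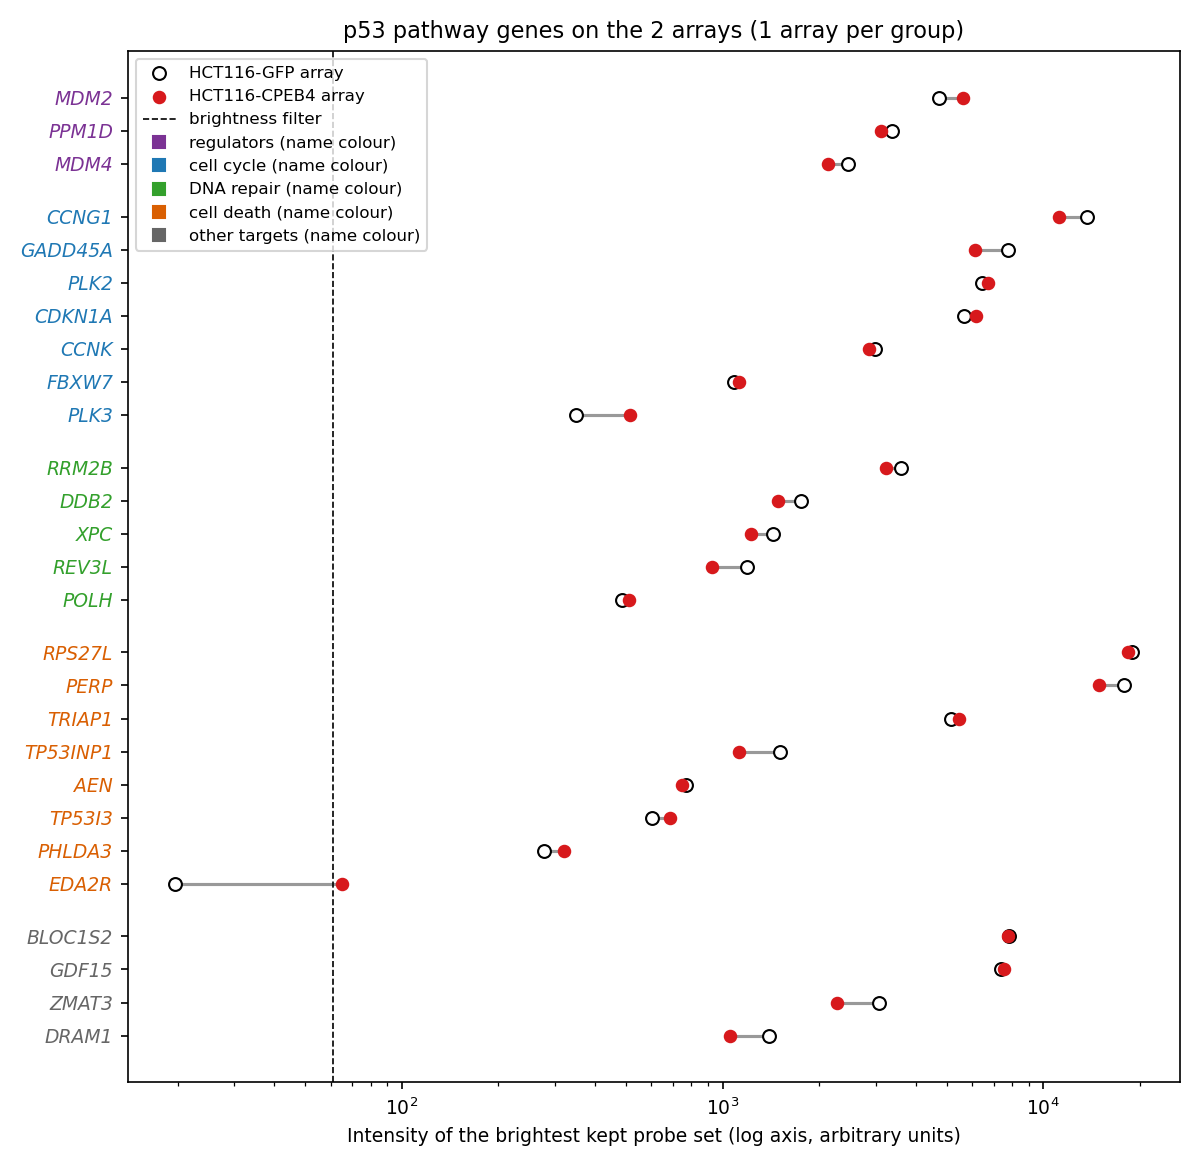
Intensity of the brightest kept probe set (log axis) of the 27 measured p53 pathway genes on the HCT116-GFP array (open circles) and the HCT116-CPEB4 array (red), grouped by role, 1 array per group and no error bars. Most pairs of points nearly touch, PLK3 is 1.48-fold higher on the CPEB4-labelled array, and EDA2R, 3.29-fold higher, starts under the dashed brightness filter at 60.8.

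Among the regulators, the brightest MDM2 probe set was higher and those of MDM4 and PPM1D were lower, all by less than 1.2-fold. MDM2 read 4729.7 in HCT116-GFP and 5636 in HCT116-CPEB4, a difference of 0.25, and values are given in this order from here on. MDM4, which binds and silences p53 without degrading it, read 2456 and 2131 (−0.21). PPM1D, the WIP1 phosphatase that removes damage-induced phosphates from p53 and its kinases, read 3370 and 3109 (−0.12).

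Probe sets of the regulators did not share a direction. Of 7 kept MDM2 probe sets, 5 were above 0 and 2 below, from −1.47 to 0.35. The lowest read 71.2 and 25.8, with the second value under the filter. That lowest probe set was kept only through the array where it is high, so its sign was fixed by the filter. The second brightest read 1574 and 1662 (0.08). The mean over the 7 was −0.13, and over the 6 that reached the filter on both arrays it was 0.10. The 6 MDM4 probe sets were split 3 and 3, between −0.29 and 1.04, with a mean of 0.18. The highest read 33.3 and 68.3 and was kept only through the array where it is high, so its sign was fixed by the filter. Over the other 5, which reached the filter on both arrays, the mean was 0.0043. The second PPM1D probe set read 248 and 317 (0.35). Each regulator thus had probe sets on both sides of 0 above the filter on both arrays.

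The genes of cell cycle arrest went both ways. CDKN1A encodes p21, the inhibitor of cyclin-dependent kinases through which p53 stops the cycle. Its only probe set read 5642 and 6149, a difference of 0.12 or 1.09-fold. GADD45A, a stress protein that inhibits the CDK1 kinase and aids repair, read 7748 and 6135 (−0.34). CCNG1, cyclin G1, which takes part in p53 feedback, read 13687 and 11214 (−0.29). The p21 reading was thus slightly higher where GADD45A and CCNG1 were lower.

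PLK3, a stress-activated polo-like kinase, had the largest difference among the p53 pathway genes above the filter on both arrays, at 349.6 and 516 (0.56). Its 3 probe sets ran from −0.85 to 1.28, and the other 2 each had a value under the filter (88.5 and 49.2, and 29.6 and 72.1). These 2 were kept only through the array where each is high, so their signs were fixed by the filter. Its relative PLK2 read 6425 and 6711 (0.06). FBXW7, the ubiquitin ligase subunit that targets cyclin E and MYC, read 1086 and 1129.5 (0.06), with 0.03 and −0.38 at its other kept probe sets. CCNK, the cyclin of the transcription kinases CDK12 and CDK13, read 2978 and 2866 (−0.06). Of the 7 measured genes in this role, 4 were above 0 and 3 below, with a median of 0.06.

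Of the 5 DNA repair genes, 4 read lower in HCT116-CPEB4, with a median of −0.23 and none past 2-fold. Over all measured genes, 6837 of 13704 read lower, and DDB2, XPC and RRM2B rest on 1 probe set each. DDB2 and XPC recognise ultraviolet damage for nucleotide excision repair. DDB2, whose full site is printed above, read 1759 and 1486 (−0.24). XPC read 1438 and 1224 (−0.23). RRM2B, the p53-inducible subunit of ribonucleotide reductase, which supplies nucleotides for repair, read 3614 and 3231 (−0.16).

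The remaining repair genes copy DNA across lesions. REV3L, the catalytic subunit of polymerase zeta, read 1189.7 and 926 (−0.36), and its second probe set differed by −0.27. POLH, polymerase eta, read 485 and 512 (0.08) and was the member of this group above 0. Its 5 kept probe sets ran from −2.86 to 0.38, the lowest from 124 to 17.1, a value under the filter. That probe set passed only through the array where it is high, and the 4 POLH probe sets above the filter on both arrays had a mean of 0.09.

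**Figure D2:**
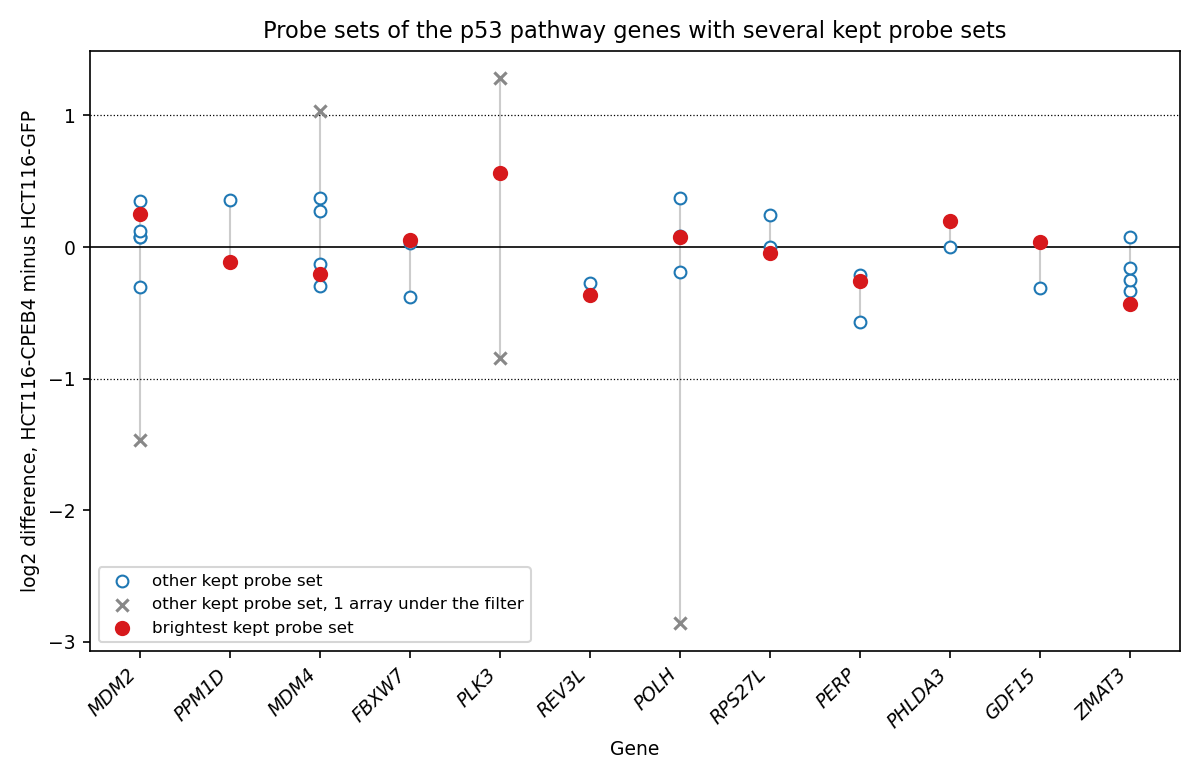
Log2 difference (vertical axis, HCT116-CPEB4 minus HCT116-GFP) of every kept probe set of the 12 p53 pathway genes with several, the brightest in red, others as open circles, and those with 1 array under the filter as crosses. The widest ranges, in POLH, PLK3, MDM2 and MDM4, come with crosses, and all kept probe sets lie on one side of 0 for REV3L, PERP and PHLDA3.

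Genes tied to cell death were split 4 and 4. TP53INP1, a stress protein of nuclear bodies that promotes p53 phosphorylation, read 1514 and 1127 (−0.43). PERP, a desmosomal membrane protein induced by p53 in apoptosis, read 17875 and 14967 (−0.26), with −0.21 and −0.57 at its other kept probe sets. AEN, a nuclease of apoptosis whose core pair is printed above, read 769.5 and 746 (−0.05). RPS27L, a ribosomal protein-like p53 target, read 18898 and 18315 (−0.05), with 0.00 and 0.25 at its other probe sets. Its sequence is close to that of RPS27, and the 3 probe sets may share signal with it.

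On the other side of 0, TP53I3, an oxidoreductase of oxidative stress, read 603 and 683 (0.18). PHLDA3, which competes with AKT at the membrane, read 279 and 319.6 (0.20), with 139 and 139.5 at its second probe set (0.00). TRIAP1, a small survival protein, read 5144 and 5459 (0.09).

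EDA2R, a TNF receptor family member that binds ectodysplasin, was the gene past 2-fold. It read 19.7 and 64.9 (1.72). It entered the measured genes only through the array where it is high, so its difference had to be positive, and the higher value is just above the filter of 60.8. With both arrays required to reach the filter, EDA2R is left out, 26 genes remain, none is past 2-fold, and the median is −0.05. Under that filter 0.734% of all genes were higher and 0.577% lower by 2-fold.

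Of the other measured targets, ZMAT3 and DRAM1 were lower and GDF15 and BLOC1S2 nearly level. ZMAT3, an RNA-binding zinc finger protein that acts in p53 tumour suppression, read 3065 and 2268 (−0.43). Its next 3 probe sets by brightness were also lower, at −0.16, −0.33 and −0.25, and the dimmest read 81.7 and 86.3 (0.08). DRAM1, a lysosomal membrane protein of autophagy, read 1394 and 1051 (−0.41). GDF15, a secreted stress cytokine, read 7373 and 7564 (0.04), with 127 and 103 at its second kept probe set (−0.31). BLOC1S2, a subunit of a complex for lysosome biogenesis and positioning, read 7796 and 7778 (0.00). SPATA18, which removes damaged mitochondria, read 36.7 and 27.6 at its brighter probe set, both under the filter.

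Set beside genes of like brightness, nearly all of these differences were ordinary. The measured genes were cut into 4 brightness classes of equal size by mean intensity, and the central 90% of differences, from the 5th to the 95th percentile, was taken as a description of the spread in each. It ran from −2.13 to 1.96 in the dimmest class, from −0.59 to 0.64 and from −0.47 to 0.48 in the middle ones, and from −0.38 to 0.36 in the brightest. Of the 27 p53 pathway genes, 15 were in the brightest class. By 1.2-fold or more, 0 of these 15 were higher and 3 (20%) lower, against 10.3% and 12.4% of all genes in that class. Of the 27, 26 lay inside the range of their class. ZMAT3 lay outside, at percentile 3.01 of its class. The next on the low side were TP53INP1 at 6.68, GADD45A at 6.86, DRAM1 at 7.50, REV3L at 9.89 and CCNG1 at 10.3. On the high side were EDA2R at 93.8, PLK3 at 92.9 and MDM2 at 89.0, and CDKN1A stood at 74.4. This range holds true differences between the cultures as well as noise, so it is not an error bar.

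**Figure D3:**
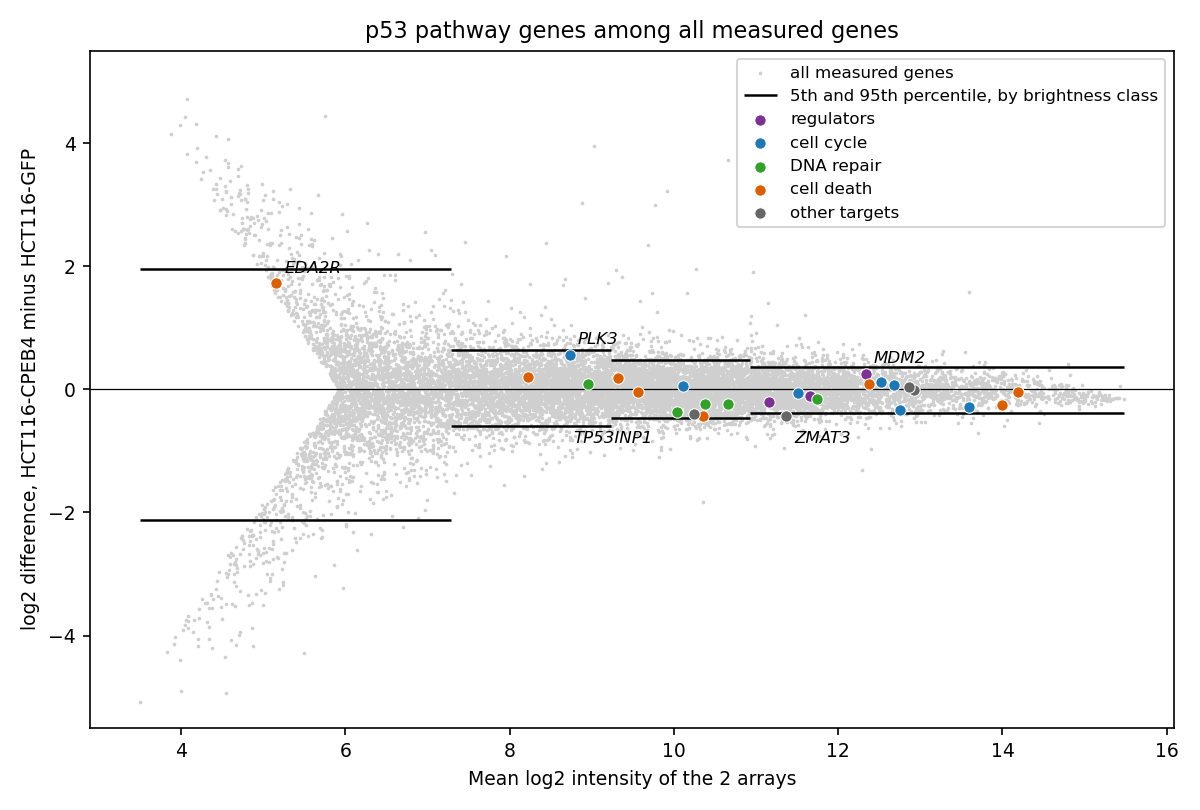
Log2 difference (HCT116-CPEB4 minus HCT116-GFP) against the mean log2 intensity of all 13704 measured genes (grey) and of the 27 p53 pathway genes, coloured by role, with black lines at the 5th and 95th percentile of each brightness class. All coloured points but ZMAT3 lie between the lines, and EDA2R sits on the sloped edge that the filter gives dim genes.

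Probe sets of one gene give the other available view of technical spread. Among 12 members with several kept probe sets, the median gap between the 2 brightest was 0.19 on the log2 scale, against 0.27 over 6520 such genes in all. The gap was below 0.10 for FBXW7, PERP, RPS27L, MDM4 and REV3L, 0.47 for PPM1D and 1.41 for PLK3. The PLK3 gap rests on a second probe set kept only through the array where it is high (88.5 and 49.2). The gaps were not matched for brightness. All kept probe sets shared a sign in 3 of the 12, which is 25%, against 45.5% over all genes with several. These shares were not matched for the number of kept probe sets, which was 7 for MDM2 and 6 for MDM4. They also count signs fixed by the filter, such as the lowest of MDM2 and of POLH, the highest of MDM4 and the dimmer ones of PLK3. Of the 6 genes that were lower by 1.2-fold or more, REV3L has a second probe set in the same direction, ZMAT3 has 3 of 4, and CCNG1, GADD45A, TP53INP1 and DRAM1 have no other kept probe set.

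The rest of the pathway was read from 3 further lists. Of 22 upstream kinases and cofactors, 20 were measured, 10 above and 10 below 0, with a median of 0.00. The damage kinase ATR, which responds to stalled replication forks, was the highest at 1279 and 1727 (0.43), and ATM, which responds to double-strand breaks, the lowest at 268 and 206 (−0.38), although the 5 kept ATM probe sets ran from −0.70 to 0.85. Of 32 further p53 target genes, 30 were measured, 11 above and 19 below, with a median of −0.06. THBS1, an inhibitor of angiogenesis, was the highest at 162 and 222 (0.46), although its second kept probe set differed by 2.52. The cytokine LIF was the lowest, at 1175 and 771 (−0.61).

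The third list holds mitotic genes, which p53 is known to lower through p21. All 12 were measured, 6 above and 6 below 0, with a median of −0.05. Cyclin B1 (CCNB1) was the highest at 7444 and 8695 (0.22), although its second probe set differed by −0.16. Its kinase CDK1 was the lowest at 15128 and 10359 (−0.55), although the 4 CDK1 probe sets reached 0.14. In none of the 3 lists was any gene past 2-fold in either direction at its brightest probe set. All their measured genes reached the filter on both arrays, where 0.734% of all genes were higher and 0.577% lower by 2-fold, so a count of 0 is what that background gives.

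**Figure D4:**
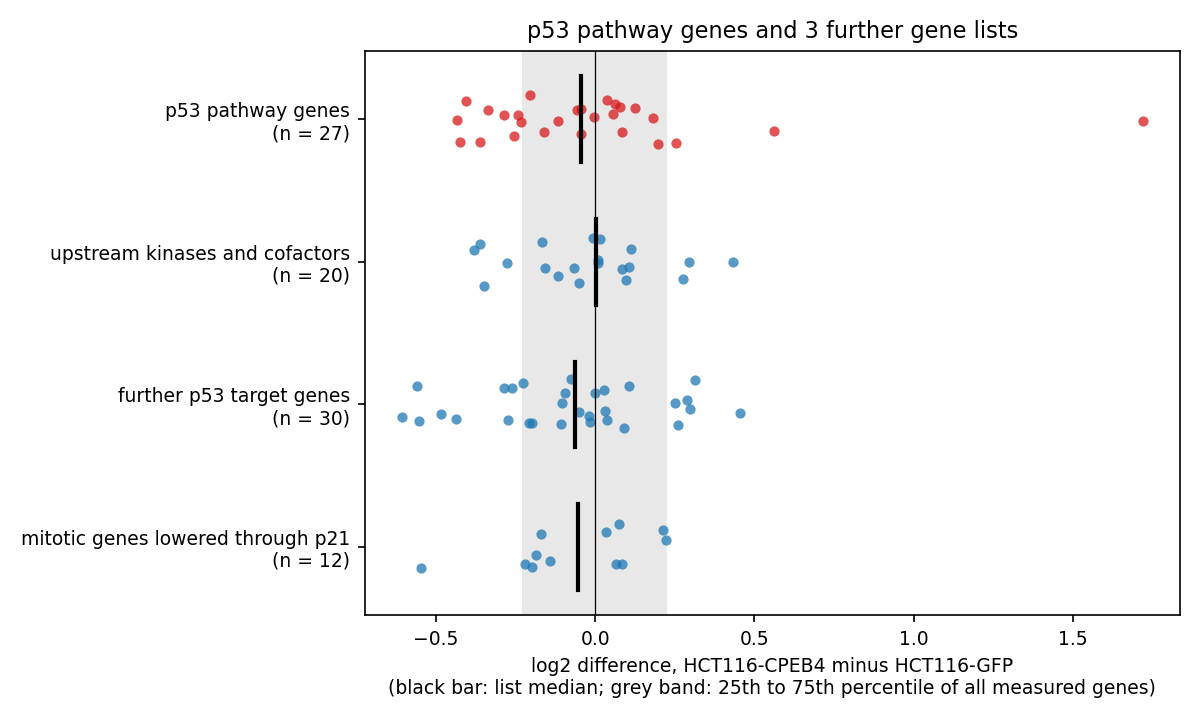
Log2 difference (HCT116-CPEB4 minus HCT116-GFP) of each measured gene among the 27 p53 pathway genes (red) and 3 further lists of 20, 30 and 12 genes (blue), with list medians as black bars and the 25th to 75th percentile of all measured genes in grey. The 4 medians lie between −0.06 and 0.00, inside the grey band of −0.23 to 0.22, and EDA2R is the point farthest from 0.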

How the data were processed

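Per the submitters' notes on processing, Partek was used, with no version or role named. The probe summary, background correction and scaling are steps not given in the sources used. The deposited table holds 1 linear intensity for each array and probe set. A platform table gave the gene of each probe set, and Entrez identifiers linked it to current RefSeq symbols (GRCh38.p14, used for names and start windows): 41097 have 1 gene, 1801 several and 11777 are unnamed here, and 41043 were found in RefSeq. Probe sets with several genes or none, and 62 controls, were left out. Intensities were turned into log2 values with no pseudocount (Python 3.11.15). Probe sets at 60.8 or more on either array were kept, and the brightest one by mean log2 intensity stood for its gene. All 30 members are named, and of each further list the genes with the highest and lowest difference above the filter on both arrays. The members and lists were chosen with earlier results of these data known. The method was checked on simulated arrays, where changes larger than any member difference here were planted in bright genes. Recovery of differences of the sizes reported was not checked. The 8 alternatives cover the filter, probe set choice, scaling and a pseudocount.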

Additional observations from a re-analysis of the deposited data

How the results depend on the processing

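Of 56 comparisons of the 7 counts and medians with an alternative, 47 kept their direction and stayed within 1.5 times (counts) or 0.1 (medians). The count of members at 2-fold or more higher was 1 and became 0 under the 75th percentile filter (377 intensity units), under the filter on both arrays and with a pseudocount of 50, because EDA2R was left out by the first 2 and read 0.72 with the third. The share of all genes higher by 2-fold fell as well, from 3.55% to 0.473%, 0.734% and 1.22% in the same order. The count at 1.2-fold higher went from 2 to 1 under the 75th percentile filter and the filter on both arrays. There the share of all genes went from 21.7% to 16.2% and 18.5%. The count of members lower by 2-fold was 0 in all 8 alternatives, where the share of all genes ran from 0.165% to 9.48%. The member median ran from −0.10 to −0.04. The median of the upstream kinases and cofactors was −0.0076 with the mean over probe sets, −0.051 without cross-hybridising probe sets, −0.019 after quantile normalization and −0.0019 after loess. The median of the mitotic genes was 0.033 under the 75th percentile filter and −0.16 without cross-hybridising probe sets. The cause of these moves in list medians was not tested. Of the 27 members, 19 kept their sign in every alternative that measured them, 7 above and 12 below 0. Most of the 19 have 1 kept probe set, so the filters and the mean over probe sets returned an unchanged value or left them out. The sign of EDA2R, 1 of the 7, was fixed by the filter. The sign turned with the mean over probe sets for MDM2, MDM4, PPM1D, FBXW7, POLH, GDF15 and RPS27L, and after quantile normalization and loess for BLOC1S2. With only probe sets above the filter on both arrays, an alternative added after the values were seen, that mean kept its sign for MDM2 and POLH. RPS27L also turned after loess and without cross-hybridising probe sets. No scaling moved the median of all genes by over 0.1. No paired analysis was possible because each group has 1 array. Dim signals are limited by background, so values near 60.8 carry little.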
